A study of Rattus norvegicus with 2 samples.

Results

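Transcripts of 10 genes that bind, carry or degrade amyloid-beta (Aβ) were examined in primary rat oligodendrocyte precursor cells (OPCs), the dividing glia that give rise to myelin-forming oligodendrocytes. The genes were the carriers Apoe and Clu, the receptors Lrp1, Lrp8, Sorl1, Prnp and Ager, and the degrading enzymes Mme, Ide and Ece1. They were chosen by name, with earlier results of these data known, and each symbol matched 1 row among the 17202 genes of the deposited table. Bulk RNA-seq gave 1 library each for 2 conditions: 1 library came from OPCs of wild-type (WT) brain kept with 1 µM Aβ for 2 days, and 1 from WT OPCs given DMSO, the solvent. The label on treatment reads alike for both samples and names Aβ alone, so the duration of the DMSO treatment is taken from it. Both cultures grew in the medium named OGM, and neither the form of the Aβ peptide nor the number of animals behind a culture is given in the labels. The labels call the OPCs adult in the extraction text and place them in developing rats in the design text. Both sample titles begin with P1, which the labels do not explain. The age of the animals is therefore uncertain.

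Aβ is cut from the amyloid precursor protein and leaves the extracellular space by several routes. Apolipoproteins carry it, lipoprotein receptors take it up, and zinc metallopeptidases cut it. Other surface proteins, such as the prion protein and RAGE, bind it and relay signals into the cell. Astrocytes are the main source of ApoE and clusterin in brain, and OPCs and oligodendrocytes also handle lipoproteins as they build membrane.

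The libraries held 15117102 estimated counts with Aβ and 15019416 with DMSO. The level of measurement was set at 1 CPM (counts scaled to library size) or more in at least 1 library, which 13505 genes and 9 of the 10 members reached. The exception was Mme. There was 1 library per condition, so no difference has a replicate check, no test was run and no p-value is given. Ratios are CPM with Aβ over CPM with DMSO, and their 95% intervals (exact Clopper-Pearson, conditional on the sum of both counts) cover counting error only.

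The 10 genes differed far more from one another than between the libraries. Stretches of 150 bases upstream of annotated transcription starts are shown for the most and least abundant members, because level was the main contrast among them. The sequences are from RefSeq on the build GRCr8, read 5′ to 3′ on the gene's strand and ending at the base before the start. Capitals mark the letters GGGCGG, the core of the GC box bound by Sp1, or their reverse complement CCGCCC.
Apoe, start 1 of 3 (chr1:88484521-88484670, minus strand): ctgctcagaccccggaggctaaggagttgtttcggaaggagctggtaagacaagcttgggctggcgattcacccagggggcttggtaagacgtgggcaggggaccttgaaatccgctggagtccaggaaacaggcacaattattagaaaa
Apoe, start 2 of 3 (chr1:88484700-88484849, minus strand): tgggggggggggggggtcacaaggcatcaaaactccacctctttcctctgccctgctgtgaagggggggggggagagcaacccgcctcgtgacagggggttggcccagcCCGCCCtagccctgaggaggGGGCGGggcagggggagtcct
Apoe, start 3 of 3 (chr1:88485817-88485966, minus strand): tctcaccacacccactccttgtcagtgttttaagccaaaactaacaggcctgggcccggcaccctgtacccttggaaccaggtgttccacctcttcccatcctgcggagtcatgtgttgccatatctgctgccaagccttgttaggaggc
Prnp, start 1 of 2 (chr3:139638926-139639075, plus strand): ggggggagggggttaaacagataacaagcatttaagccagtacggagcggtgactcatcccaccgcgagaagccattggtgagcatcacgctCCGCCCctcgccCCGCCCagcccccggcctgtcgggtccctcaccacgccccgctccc
Ager (chr20:4155686-4155835, minus strand): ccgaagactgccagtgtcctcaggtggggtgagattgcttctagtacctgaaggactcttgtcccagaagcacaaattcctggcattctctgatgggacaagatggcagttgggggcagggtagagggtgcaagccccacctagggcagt
Sorl1 (chr8:51401248-51401397, minus strand): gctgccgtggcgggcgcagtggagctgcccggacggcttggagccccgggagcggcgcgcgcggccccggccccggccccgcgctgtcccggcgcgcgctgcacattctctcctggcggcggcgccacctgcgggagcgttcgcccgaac
Mme (chr2:149872347-149872496, plus strand): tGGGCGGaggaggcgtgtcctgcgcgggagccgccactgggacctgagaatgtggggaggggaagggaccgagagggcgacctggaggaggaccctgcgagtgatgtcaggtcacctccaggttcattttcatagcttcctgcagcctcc
RefSeq promoter entries were matched for 8 members, with 11 starts. Clu and Lrp8 are named only. In the 250 bases upstream, the GC box letters on either strand were found in 6 of the 8 members, namely Apoe, Prnp, Lrp1, Ide, Ece1 and Mme, and in neither Ager nor Sorl1. They were in 30.5% of all 33465 annotated starts and in 57.0% of the starts of genes measured here. The letters TATAAA, again on either strand, were found in Prnp alone, outside the stretch shown, against 12.9% of all starts. The windows did not sort by level. Mme, at the bottom of the order, had 25 CpG dinucleotides in its window, while the 3 starts of Apoe, at the top, had 10, 8 and 3. Ager had 2 and Sorl1 43, beside a median of 5 over all starts and 16 over starts of genes measured here.

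Per transcript length, Apoe stood apart. Apoe, the main lipid carrier of the brain and a binder of Aβ, was listed at 1313 TPM (transcript abundance scaled for length and library size) with Aβ and 1225 TPM with DMSO. It ranked 122nd of all genes in the Aβ library and 127th in the DMSO library. It held 68.5% of the summed TPM of the 10 genes with Aβ and 67.9% with DMSO. Prnp, which encodes the prion protein, a surface receptor for Aβ oligomers, followed at 207 TPM with Aβ and 205 TPM with DMSO. Clu, the secreted chaperone clusterin, had 162 TPM with Aβ and 148 TPM with DMSO.

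The middle of the order held 4 genes. Ece1, a membrane zinc peptidase known for making endothelin, had 76.6 TPM with Aβ and 76.8 TPM with DMSO. Lrp1, the large endocytic receptor for ApoE and Aβ, had 66.3 TPM with Aβ and 59.7 TPM with DMSO. Both values of Lrp1 lay between those of Ece1 and those of the other 2. Lrp8, a receptor for reelin and ApoE, had 43.9 TPM with Aβ and 42.6 TPM with DMSO. Ide, the cytosolic insulin-degrading enzyme, had 41.7 TPM with Aβ and 41.9 TPM with DMSO. Lrp8 and Ide lay 1.03-fold apart in mean TPM, which is less than the gap between the libraries for Lrp1, and without replicates their order has no spread to be set against.

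A wide step separated these 7 genes, each above 40 TPM in both libraries, from the other 3. Ager, which encodes RAGE, the receptor for advanced glycation end products, had 3.70 TPM with Aβ and 4.30 TPM with DMSO. Sorl1, a sorting receptor that steers the amyloid precursor protein away from cleavage, had 2.58 TPM with Aβ and 2.31 TPM with DMSO. Mme, which encodes neprilysin, a main extracellular Aβ-degrading peptidase of brain, was at 0.160 TPM with Aβ and 0.370 TPM with DMSO. The order of the 10 genes was the same in both libraries.

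**Figure D1:**
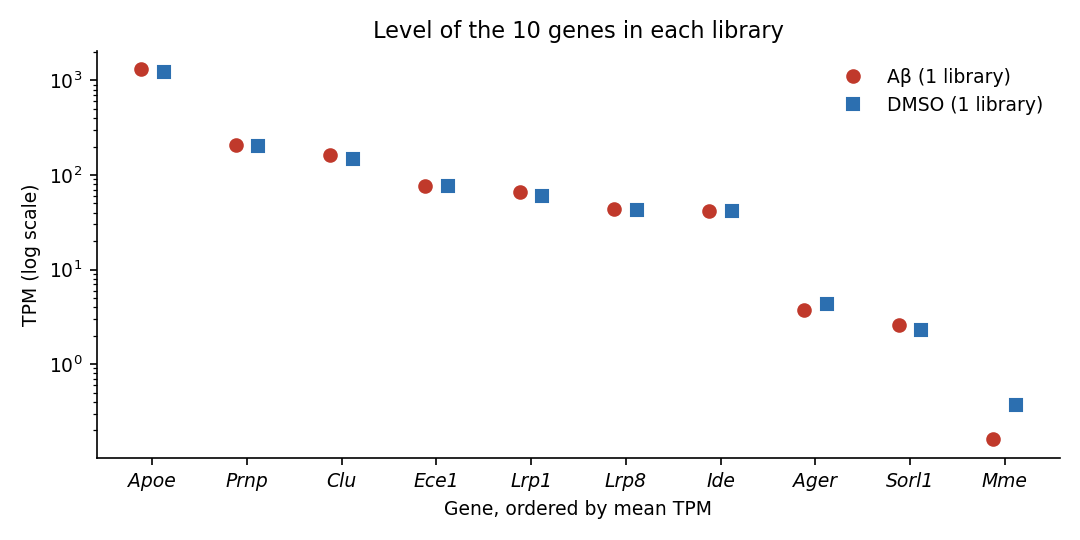
TPM of each of the 10 genes (log scale) in the Aβ library (circles) and the DMSO library (squares), 1 library each, ordered by mean TPM. Apoe stands at 1313 and 1225 TPM, 6 genes lie between 41.7 and 207 TPM, and Ager, Sorl1 and Mme lie at 4.30 TPM or below.

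Between the libraries, none of the 9 measured members differed by 1.2-fold or more on the log2 scale with 0.5 CPM added. Across all measured genes, 5.41% were at least 1.2-fold higher with Aβ and 5.72% at least 1.2-fold lower. Beyond 2-fold the shares were 0.267% higher and 0.407% lower, with no measured member among them. The median log2 ratio of the 9 members was -0.0069, beside -0.00078 for all measured genes. It lay above 0 with TPM, with FPKM and with a filter of 10 CPM. With TPM it was 0.043, where the median of all measured genes was 0.037. Of the 9, 4 had a ratio above 1 and 5 below. Intervals lay wholly above 1 for 3 members, against 6.49% of all measured genes, and wholly below 1 for 0, against 6.88%. Since intervals narrow with depth, the share among the 5143 genes at 50 CPM or more is closer to 7 of the members, and there it was 9.33% above and 9.68% below.

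The 3 members whose intervals lay above 1 were both carriers and the receptor Lrp1. Apoe had 11509 counts with Aβ, against 10891 with DMSO (ratio 1.05, 1.02 to 1.08). Clu had 2456 counts with Aβ, against 2275 with DMSO (ratio 1.07, 1.01 to 1.13). Both carriers were slightly higher with Aβ, and with 1 library per condition the size cannot be set against variation between cultures. Among genes at 50 CPM or more, 18.2% had a log2 ratio as high as that of Apoe or higher and 9.66% as high as that of Clu. Scara3, a scavenger receptor gene, overlaps Clu in the RefSeq annotation of GRCr8 and had 573 counts with Aβ and 533 with DMSO. Both had whole counts. Whether counting used strand is not stated here, and the reads were processed on another build, Rnor_6.0. The part of reads that came from where such genes overlap is therefore not known. Tomm40, the mitochondrial import pore gene next to Apoe on the chromosome, had 920 counts with Aβ and 1064 with DMSO (0.858, 0.784 to 0.938).

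Lrp1 had 10147 counts with Aβ, against 9325 with DMSO (ratio 1.08, 1.05 to 1.11). Of the genes at 50 CPM or more, 7.54% had a log2 ratio as high or higher. Lrp1 has the longest transcript of the 10, and in these libraries longer transcripts had higher ratios. The median log2 ratio climbed to 0.041 in the bin of genes with a median length of 8673 bases, and was -0.040 in the bin with a median length of 348 bases. With that trend removed, a step added after the data were seen, Lrp1 stood 1.05-fold higher, Apoe 1.06-fold and Clu 1.08-fold. Past 8673 bases the correction was held at its last value, and Lrp1, at 14400 bases, lies past that length. Apoe and Clu have short transcripts, so the correction raised them. The Aβ to DMSO ratio of the length that count and FPKM imply was 1.00 for Lrp1, 1.01 for Apoe and 1.00 for Clu, beside a median of 1.00 over all genes.

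**Figure D2:**
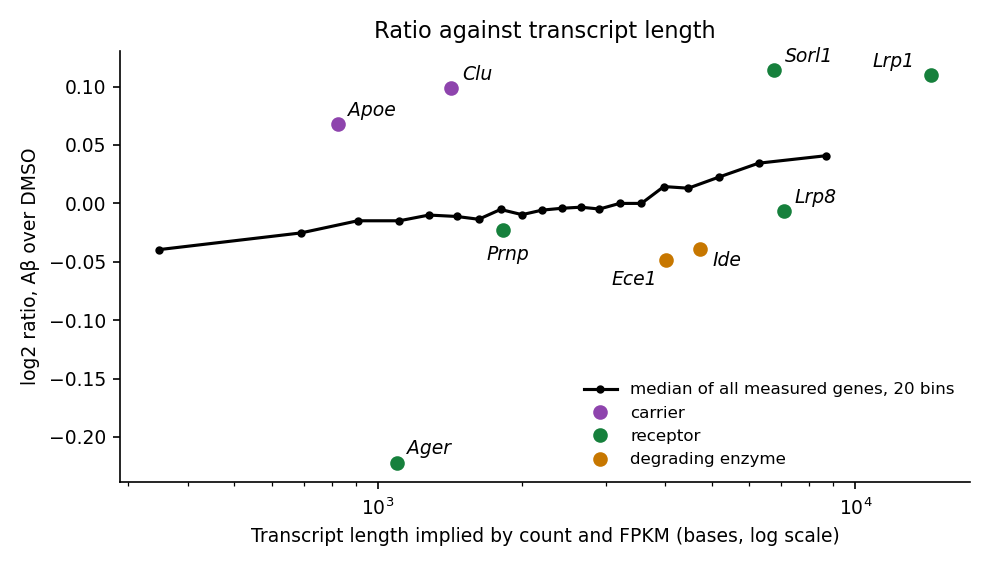
log2 ratio of Aβ over DMSO of the 9 measured genes (points) against the transcript length implied by count and FPKM (log scale), with the median of all measured genes in 20 bins of length (line). The line climbs with length, and Apoe and Clu lie well above it at short lengths. Lrp1, the longest of the 9, lies past the end of the line and higher than its last value.

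The other receptors had ratios whose intervals held 1. Lrp8 had 3301 counts with Aβ and 3290 with DMSO (ratio 0.995, 0.948 to 1.04). Its log2 ratio was 0.0032 with FPKM and 0.043 with TPM, where the median of all genes was 0.037. Prnp had 4023 counts with Aβ and 4055 with DMSO (0.984, 0.942 to 1.03). With TPM its log2 ratio was 0.015, above 0 but below the median of all genes with TPM (0.037). Both intervals lie well within 1.2-fold of 1. Sorl1 had 184.96 estimated counts with Aβ and 168.84 with DMSO (1.09, 0.877 to 1.35). Its counts were fractional, the only such case among the 10, so some of its reads may have been shared with another gene. Ager had 43 counts with Aβ and 51 with DMSO (0.836, 0.544 to 1.28). At this depth a difference in Ager within that interval was not detectable.

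All 3 degrading enzymes had fewer counts with Aβ, and each interval held 1. Ide had 2106 counts with Aβ and 2147 with DMSO (ratio 0.973, 0.916 to 1.03). Kif11, a mitotic kinesin gene that overlaps Ide in the annotation, had 0.978 (0.931 to 1.03). Ece1 had 3254 counts with Aβ and 3338 with DMSO (0.967, 0.921 to 1.02). Mme had 5 counts with Aβ and 11 with DMSO (0.451, 0.123 to 1.41), too few to order the libraries.

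**Figure D3:**
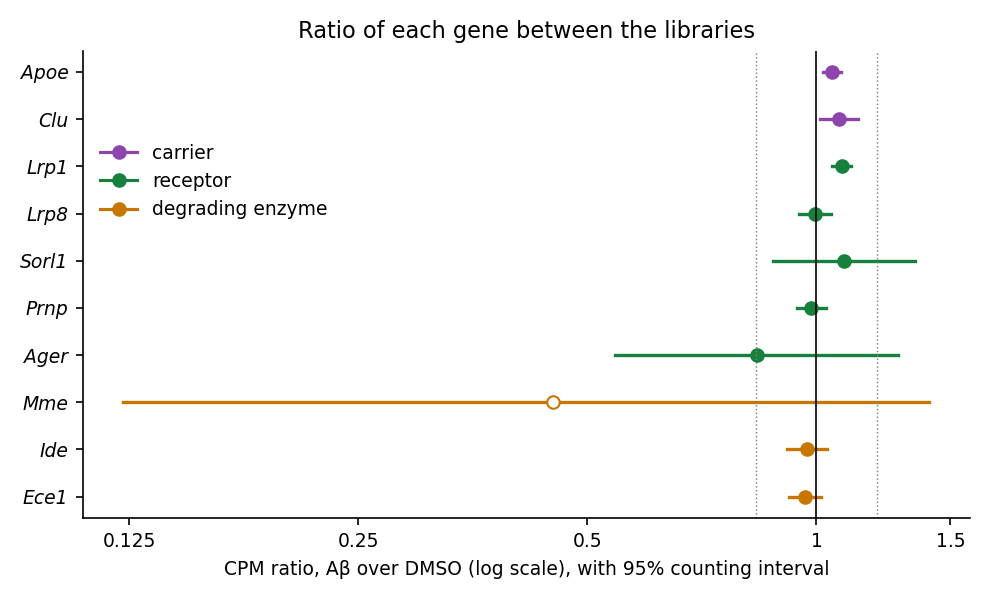
CPM ratio of Aβ over DMSO (log scale) for each of the 10 genes, with bars for the 95% counting interval and dotted lines at 1.2-fold either way. The open circle marks Mme, which was below the level of measurement. The intervals of Apoe, Clu and Lrp1 lie above 1, and the other 7 hold 1.

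**Figure D4:**
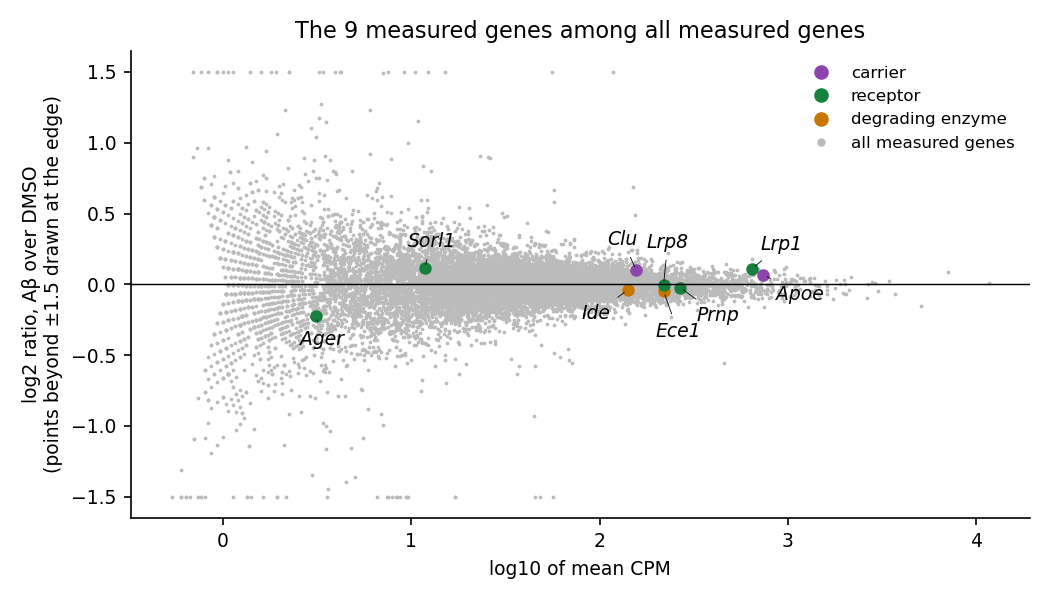
log2 ratio of Aβ over DMSO against mean CPM (log10) for all 13505 measured genes (grey) and the 9 measured members (coloured by role). The members lie within the cloud of genes at their own level, with Apoe, Clu and Lrp1 in its upper part.

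Relatives of the members showed which form of each family the cultures carried. Among lipoprotein receptors, Lrp1 was 603 times as high in TPM as Lrp1b with Aβ and 426 times with DMSO, and Lrp1b had only 16 counts with Aβ and 21 with DMSO. Lrp8 exceeded Vldlr, the other reelin receptor, by 2.25 times in TPM with Aβ and 2.39 times with DMSO. Among sorting receptors related to Sorl1, Sort1 (sortilin) had 49.9 TPM with Aβ and 45.7 TPM with DMSO, and Sorcs1 had 27.4 TPM with Aβ and 25.2 TPM with DMSO, both above Sorl1. Sprn, the prion-like Shadoo gene, had 4.42 TPM with Aβ and 4.38 TPM with DMSO, well under Prnp. Ece1 exceeded its relative Ece2 by 11.2 times in TPM with Aβ and 12.7 times with DMSO. Mmel1, the closest relative of Mme, was also below measurement, with 10 counts with Aβ and 15 with DMSO. Nrdc, a peptidase of the same family as Ide, had 90.4 TPM with Aβ and 83.2 TPM with DMSO.

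Other genes of Aβ handling were taken from 6 lists, which held 129 genes of the table, 110 of them measured. Together, 5 were at least 1.2-fold higher with Aβ, 8 at least 1.2-fold lower and 0 beyond 2-fold, with a median log2 ratio of -0.0076. These counts amount to shares close to those of all measured genes. Intervals lay above 1 for 12 of the 110 and below 1 for 11, both shares above those of all measured genes (6.49% and 6.88%) and nearer to those of genes at 50 CPM or more (9.33% and 9.68%). The list of receptors and uptake factors had a median of 0.013 over 32 measured genes, of which 1 was at least 1.2-fold higher and 2 lower. The higher one was Lrp6, a Wnt coreceptor, with 820 counts with Aβ and 669 with DMSO (1.22, 1.10 to 1.35), named after its value was seen. With the length trend removed it stood at 1.18 and no longer reached 1.2-fold. The lower 2 were the lipopolysaccharide coreceptor Cd14 at 0.763 (0.551 to 1.05) and Lrp1b at 0.756 (0.369 to 1.52), both from low counts. Scarb2, a lysosomal membrane protein, had 2582 counts with Aβ and 2199 with DMSO (1.16, 1.10 to 1.23), and 0.875% of genes at 50 CPM or more had a log2 ratio as high. Intervals also lay above 1 for Sort1 (1.06, 1.01 to 1.11) and the glutamate receptor Grm5 (1.16, 1.03 to 1.30), both named after their values were seen, and below 1 for 0 of the 32. Lrpap1, the chaperone of Lrp1, stood at 1.06 (0.977 to 1.16), Picalm, a clathrin adaptor, at 1.01 (0.966 to 1.06), and the integrin Itgb1 at 0.995 (0.963 to 1.03).

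Carriers and lipoprotein genes other than Apoe and Clu had a median log2 ratio of -0.055 over 17 measured genes, with 3 at least 1.2-fold higher and 3 lower. Intervals lay above 1 for 4 of them and below 1 for 4, where 6.49% of all measured genes lay above and 6.88% below. All 4 above 1, named after their values were seen, encode ATP-binding cassette (ABC) transporters, the family that loads lipid onto ApoE particles among other tasks. Abca7 had 129 counts with Aβ and 75 with DMSO (1.71, 1.27 to 2.30). Abca1, the main lipid donor to ApoE, had 3025 counts with Aβ and 2682 with DMSO (1.12, 1.06 to 1.18), which was 1.09-fold with the length trend removed. Abcc1, with fractional counts, stood at 1.23 (1.06 to 1.42) and Abcg1, a cholesterol exporter, at 1.23 (1.00 to 1.51). Of the 2 other ABC genes in the list, Abca2 stood at 1.05 (0.982 to 1.13) and Abcb1a was below measurement. Intervals lay below 1 for the protease inhibitor Cst3 (0.962, 0.936 to 0.989), the actin-severing protein Gsn (0.941, 0.899 to 0.985), the granin Scg2 (0.893, 0.848 to 0.940) and the apolipoprotein Apom, which had 7 counts with Aβ and 19 with DMSO (0.365, 0.130 to 0.908). Cst3 has a short transcript and stood at 0.987 with the length trend removed. Cst3 was the one listed carrier above Apoe, at 2294 TPM with Aβ and 2349 TPM with DMSO. The protease trap A2m stood at 0.998 (0.957 to 1.04) with fractional counts.

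Degrading enzymes other than the 3 members had a median log2 ratio of 0.016 over 22 measured genes, with 1 at least 1.2-fold higher and 2 lower. The higher one, named after its value was seen, was the aminopeptidase Lnpep at 1.30 (0.892 to 1.91), with fractional counts. The lower 2 were Plau, the urokinase gene, at 0.746 (0.553 to 1.00) and the secretase Bace2 at 0.567 (0.254 to 1.21), from 12 counts with Aβ and 21 with DMSO. The abundant lysosomal cathepsins lay near 1, with Ctsb at 1.05 (1.01 to 1.10), Ctsd at 0.999 (0.956 to 1.04) and Ctsl at 1.07 (1.00 to 1.13). Intervals lay above 1 for Ctsb and for the membrane protease Mmp14 (1.06, 1.00 to 1.12), and below 1 for the aminopeptidase Npepps (0.936, 0.892 to 0.983), Mmp14 and Npepps being named after their values were seen. The proteasome subunit Psmc1 stood at 0.961 (0.914 to 1.01).

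Partners of Sorl1, Prnp and Ager completed the set. The list on sorting of Sorl1 and its cargo held retromer subunits, sorting nexins and adaptors. None of its 16 measured genes reached 1.2-fold, and their median log2 ratio was -0.014. Ap2m1, Snx3, Snx5 and Vps35 lay between 0.974 and 0.998, and Snx2 and Vps26b both at 1.06, each with an interval that held 1. None of the 10 measured prion protein partners reached 1.2-fold either, with a median of -0.017. The kinase Fyn, which relays prion protein signals, stood at 0.976 (0.944 to 1.01), the chaperone adaptor Stip1 at 1.01 (0.971 to 1.06), the proteoglycan Gpc1 at 0.992 (0.949 to 1.04) with fractional counts and the kinase Ptk2b at 1.13 (0.892 to 1.44). Intervals lay below 1 for Rpsa, the gene of a ribosomal protein and laminin receptor (0.950, 0.932 to 0.968), and the synaptic scaffold Dlg4 (0.921, 0.874 to 0.970). The same held for Mapt, named after its value was seen (0.954, 0.915 to 0.995). With the length trend removed, Rpsa, which has a short transcript, stood at 0.966, Dlg4 at 0.920 and Mapt at 0.943.

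The list on RAGE held ligands, other S100 genes and signalling genes. Its median log2 ratio was -0.021 over 13 measured genes, with 0 at least 1.2-fold higher and 1 lower. Intervals lay above 1 for 2 of the 13 and below 1 for 3, where 6.49% of all measured genes lay above and 6.88% below. Among genes at 50 CPM or more, these shares were 9.33% and 9.68%. S100a4 had 602 counts with Aβ and 727 with DMSO (0.821, 0.736 to 0.916), and S100a10 had 2447 counts with Aβ and 2822 with DMSO (0.860, 0.814 to 0.908). Both have very short transcripts, and with the length trend removed they stood at 0.846 and 0.884, so that S100a4 no longer reached 1.2-fold. Hmgb1, a nuclear protein that binds RAGE when released, stood at 0.935 (0.897 to 0.974) with fractional counts, named after its value was seen. S100b, a glial RAGE ligand, had 4049 counts with Aβ and 3801 with DMSO (1.06, 1.01 to 1.10), and Hmgb2 stood at 1.07 (1.03 to 1.11) with fractional counts.

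**Figure D5:**
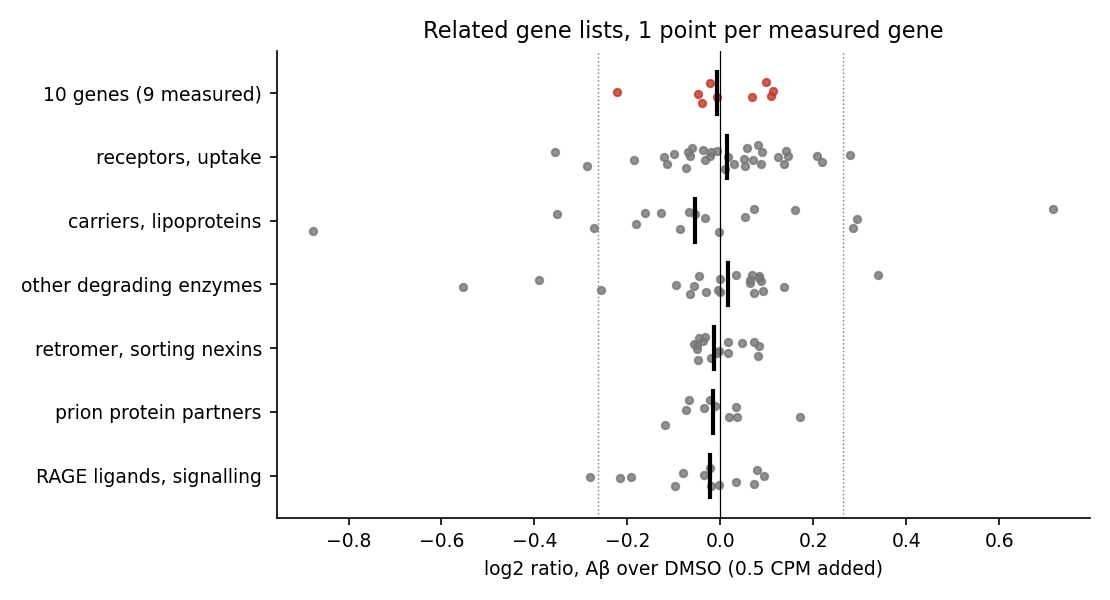
log2 ratio of Aβ over DMSO for the 9 measured members (top row) and for the measured genes of the 6 lists, 1 point per gene, with black bars for the medians and dotted lines at 1.2-fold. All medians lie between -0.055 and 0.016, and the points furthest from 0 are Apom and Abca7, both in the carriers and lipoproteins row.

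The cultures carried OPC markers and also genes of other cell types that express members. The 6 OPC markers summed to 2099 TPM with Aβ and 2033 TPM with DMSO, and all were measured. Pdgfra had a ratio of 1.08 (1.05 to 1.10) with fractional counts, Cspg4 1.06 (0.977 to 1.15) and Ptprz1 1.01 (1.00 to 1.03). Olig2 stood at 1.01 (0.969 to 1.05), Sox10 at 0.995 (0.946 to 1.05) and Olig1 at 0.985 (0.964 to 1.01). The intervals of Pdgfra and Ptprz1 lay above 1, and those of the other OPC markers held 1. The 6 astrocyte markers, all measured as well, summed to 1512 TPM with Aβ and 1442 TPM with DMSO, of which Gfap gave 839 TPM with Aβ and 793 TPM with DMSO. Gfap had a ratio of 1.03 (1.01 to 1.05), Aldoc 1.03 (0.996 to 1.07) and Slc1a2 1.02 (0.743 to 1.39). Gja1 stood at 0.980 (0.926 to 1.04), Aqp4 at 0.974 (0.931 to 1.02) and Aldh1l1 at 0.883 (0.809 to 0.963). The 6 astrocyte markers thus lay on either side of 1. The 8 microglial markers summed to 12.6 TPM with Aβ and 17.2 TPM with DMSO, and 4 of them were measured, with a median log2 ratio of -0.22. Csf1r had 47 counts with Aβ and 50 with DMSO (0.932, 0.613 to 1.42), and C1qa 11 with Aβ and 21 with DMSO (0.520, 0.226 to 1.13). Of those below measurement, Tyrobp had 7 with Aβ and 13 with DMSO, P2ry12 8 with Aβ and 5 with DMSO, and Trem2 2 with Aβ and 1 with DMSO. The interval of each of the 8 microglial markers held 1, so a difference in them was not shown. The 6 neuronal markers summed to 586 TPM with Aβ and 558 TPM with DMSO, mostly from Tubb3 and Map2. Vessel, fibroblast and ventricle lining genes were scarce. The 4 endothelial markers in the table summed to 1.04 TPM with Aβ and 1.21 TPM with DMSO. The 5 fibroblast and pericyte markers in the table summed to 5.37 TPM with Aβ and 4.93 TPM with DMSO. The 3 ependymal and choroid plexus markers in the table summed to 4.75 TPM with Aβ and 6.05 TPM with DMSO. The 6 oligodendrocyte markers summed to 60.4 TPM with Aβ and 58.0 TPM with DMSO. No marker in the table was at 0 in both libraries. The part of these cell types in the ratios of the members was not tested, and in bulk RNA fewer cells of a type cannot be told apart from less RNA per cell.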

How the data were processed

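Gene expression was measured by RNA-seq in 1 Aβ library and 1 DMSO library, grouped by the treatment recorded for each sample. A BGI mRNA kit was used for the libraries, per the labels' protocols. Per the submitters' processing notes, Bowtie2 and the build Rnor_6.0 were used. The quantifier, annotation release, versions and use of strand were not stated in the labels or file headers. The deposited table gives, per the file headers, the authors' estimated count (expected count), TPM and FPKM for each gene. The authors' further signal column, a normalized count per the file headers, was the rounded-up estimated count over a constant (1.00 for Aβ, 0.998 for DMSO) for 100% of its values above 0 (relative tolerance 1e-06) and was not analysed. Estimated counts were fractional for 11.9% of genes in each library.

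Counts were rounded and scaled to CPM on TMM effective library sizes (edgeR 4.0.16, R 4.3.3). log2 ratios used a pseudocount of 0.5 CPM, which understates differences of low genes, and ratios in the text used none. Intervals were computed with scipy 1.17.1. The calculation of ratios and intervals was tried on simulated counts with counting error only. Variation between cultures was not simulated, so the trial does not bear on it. With 1 library per group no test was run. Alternatives were plain totals, size factors of DESeq2 1.42.0, TPM, FPKM, pseudocounts of 0.1 and 5, no filter, a filter of 10 CPM, members with whole counts, and removal of the length trend, which was added after seeing the data. Named genes were the members and, from each list, the 4 most abundant measured genes, the 2 with the furthest ratio and any past 2-fold. Relatives and neighbours of members, and genes behind a count of calls, were named outside this rule, several of them after their values were seen. Members and lists were chosen with earlier results of these data known. A relative of 1 member is not reported here.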

Additional observations from a re-analysis of the deposited data

How the results depend on the processing

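No paired analysis was possible because each condition holds 1 library. Of 397 values recomputed under an alternative, 370 moved little and 27 did not. Part of the 370 had no room to move, so the tally does not measure stability. A filter leaves a single gene's value as it was, and most counts at 2-fold were 0 under every setting. The tolerance was the counting interval for a gene, the medians of its genes' interval limits for a list median, and 1.5 times for a count. Of 64 recomputed medians, 8 turned sign, none beyond 0.043 in size. The members' median was 0.0032 with FPKM, 0.030 with the filter of 10 CPM and 0.043 with TPM, where that of all genes was 0.037. With no filter the receptor list stood at -0.014 and degrading enzymes at -0.0029. With TPM the Sorl1 sorting list stood at 0.026, prion protein partners at 0.020 and RAGE genes at 0.0089, each below the median of all genes with TPM (0.037). Apoe, Clu, Lrp1 and Sorl1 stayed above 0 on the log2 scale in all 9 alternatives. Ager, Mme, Ide and Ece1 stayed below 0 in all 9, while Lrp8 was above 0 in 2 and Prnp in 1. The filters choose genes and leave a gene's own value as it was, so they could not turn a gene. Ager and Mme were followed also where a filter left them out. The log2 ratio of Lrp1 (0.110) was 0.151 with TPM, which moved the median of all genes to 0.037, and 0.069 with the length trend removed. With no filter, 1 member (Mme) was at least 1.2-fold lower. In the lists, counts of genes at least 1.2-fold higher or lower rest on 0 to 3 genes and moved as follows. With pseudocount 5, receptors had 0 higher and 0 lower, carriers 1 higher and 0 lower, degrading enzymes 0 higher and 0 lower, and RAGE genes 0 lower. With the filter of 10 CPM, receptors, carriers and degrading enzymes each had 0 lower, and degrading enzymes 0 higher. With no filter, 5 receptors and 4 degrading enzymes were lower. With TPM, 0 receptors and 2 RAGE genes were lower and 0 degrading enzymes higher, and with FPKM these counts were 1, 2 and 0. With the length trend removed, 0 receptors were higher and 0 RAGE genes lower. Among carriers, 1 gene was at least 2-fold lower with TPM, with FPKM and with pseudocount 0.1. The causes were not tested. Depth limits Ager, Sorl1 and Mme, whose intervals span a wide range, and with 1 library per condition no value can be set against variation between cultures.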
